A study of Homo sapiens with 54 samples.

Results

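Trimethylation of histone H3 at lysine 4 (H3K4me3) was measured by ChIP-seq in RH4 cells, and the broadest of the called peaks are described here. A region was taken as wide where the peak in the DMSO replicate 1 file spanned at least 3 kb, which selected 719 of 29812 peaks (2.41%). These 719 regions held 2.70 of the 29.8 Mb under all peaks (9.05%), and their median width was 3464 bp against 727 bp over all peaks of that file. The regions were selected on the peak widths of that file, so its widths and enrichments are given as a description and were not tested.

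RH4 is an established cell line of alveolar rhabdomyosarcoma, a muscle-lineage tumor, and carries the PAX3-FOXO1 fusion gene in every group. Cells were treated for 24 h with the solvent DMSO or with P3FI-90, an inhibitor of histone lysine demethylases, and H3K4me3 peaks were called in 3 DMSO and 3 P3FI-90 samples, numbered 1, 3 and 4. RNA-seq at 24 h covered 3 DMSO, 3 P3FI-90 and 2 P3FI-63 libraries, P3FI-63 being the screening hit to which P3FI-90 is related. The labels give 1 µM P3FI-90 for replicates 3 and 4 and 10 µM P3FI-63, and give no dose in µM for P3FI-90 replicate 1. RH4 tumors grown in immunodeficient NSG mice that received DMSO or P3FI-90 for 5 days added 2 libraries per group, and the DMSO and P3FI-90 cells at 6 h and a compound screen added single libraries. No label says whether replicates were separate cultures, so a p-value measures the spread between these samples only. All 7 skeletal muscle lineage markers were at 1 TPM or more in every bulk library, with a summed level of 1960 to 2190 TPM in the DMSO cells, whereas 14 of 16 markers of other cell types were under 1 TPM there.

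H3K4me3 is deposited by SET1 and MLL methyltransferases around the start sites of active genes and is removed by KDM5 and, in part, other demethylases. At most promoters the mark covers a few nucleosomes on either side of the start. Unusually broad domains are known from many cell types at genes of cell identity and at genes transcribed at high or steady levels.

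Sequence was printed for 6 wide regions that carry the account below: 4 of the widest at coding starts, the FGFR4 region as a growth factor receptor of this tumor, and 1 wide region that holds no coding start. Each run is the 300 bases around the peak summit, the base of highest signal in the DMSO replicate 1 file, taken from the + strand of GRCh37 (hg19), and capitals mark CG dinucleotides. The windows of PAX3 (chr2:223162289-223162588), CDK6 (chr7:92465083-92465382), PRDM12 (chr9:133541040-133541339) and FGFR4 (chr5:176514709-176515008) lie in introns of those genes. The HES7 window (chr17:8028676-8028975) lies upstream of the gene and the window upstream of MYOD1 (chr11:17702134-17702433) lies outside annotated genes.
PAX3: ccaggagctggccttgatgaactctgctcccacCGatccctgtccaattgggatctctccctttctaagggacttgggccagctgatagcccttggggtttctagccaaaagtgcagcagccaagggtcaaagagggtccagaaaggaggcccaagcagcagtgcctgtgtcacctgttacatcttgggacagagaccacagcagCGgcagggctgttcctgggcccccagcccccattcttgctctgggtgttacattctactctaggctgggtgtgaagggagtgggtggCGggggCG
CDK6: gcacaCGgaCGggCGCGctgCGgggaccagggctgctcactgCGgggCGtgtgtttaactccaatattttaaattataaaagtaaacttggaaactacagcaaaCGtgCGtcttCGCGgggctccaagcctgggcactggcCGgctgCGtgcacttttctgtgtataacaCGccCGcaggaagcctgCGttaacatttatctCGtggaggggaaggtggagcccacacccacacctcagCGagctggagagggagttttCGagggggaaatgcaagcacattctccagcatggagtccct
PRDM12: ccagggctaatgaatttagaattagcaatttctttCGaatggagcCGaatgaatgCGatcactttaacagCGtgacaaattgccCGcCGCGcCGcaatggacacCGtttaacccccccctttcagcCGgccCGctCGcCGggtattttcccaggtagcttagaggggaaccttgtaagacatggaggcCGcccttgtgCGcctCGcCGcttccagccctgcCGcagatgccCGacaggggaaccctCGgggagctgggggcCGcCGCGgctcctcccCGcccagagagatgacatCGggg
HES7: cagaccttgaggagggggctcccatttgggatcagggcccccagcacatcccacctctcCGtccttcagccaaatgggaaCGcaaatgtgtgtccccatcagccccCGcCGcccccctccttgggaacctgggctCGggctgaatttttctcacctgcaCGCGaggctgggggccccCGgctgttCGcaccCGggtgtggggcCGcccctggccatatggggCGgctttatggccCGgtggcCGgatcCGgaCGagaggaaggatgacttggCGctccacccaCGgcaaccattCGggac
FGFR4: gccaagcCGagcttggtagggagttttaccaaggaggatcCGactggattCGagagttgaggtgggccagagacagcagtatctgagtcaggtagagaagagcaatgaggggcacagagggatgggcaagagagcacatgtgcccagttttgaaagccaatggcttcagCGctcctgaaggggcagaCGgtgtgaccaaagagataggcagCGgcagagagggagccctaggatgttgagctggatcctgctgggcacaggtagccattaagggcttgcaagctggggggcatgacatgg
Upstream of MYOD1: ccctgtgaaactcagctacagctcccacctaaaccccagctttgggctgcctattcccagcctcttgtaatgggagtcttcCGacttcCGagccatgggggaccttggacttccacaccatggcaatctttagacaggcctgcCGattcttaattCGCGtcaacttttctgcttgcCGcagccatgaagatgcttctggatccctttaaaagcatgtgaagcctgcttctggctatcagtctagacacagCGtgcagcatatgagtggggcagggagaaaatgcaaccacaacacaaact
The PRDM12 window held 25 CG dinucleotides, the CDK6 and HES7 windows 19 each, the window upstream of MYOD1 7, the FGFR4 window 6 and the PAX3 window 4. The ratio of observed to expected CG, which is near 1 where CG is not depleted, was 0.899 for PRDM12, 0.803 for CDK6 and 0.572 for HES7. It was 0.356 upstream of MYOD1, 0.279 for FGFR4 and 0.154 for PAX3, so the summits of the wide regions fell in both CG-rich and CG-poor sequence.

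The widest region spanned the start of PAX3 (chr2:223159664-223169794, 10131 bp), which encodes the paired box factor whose DNA-binding domains form part of the fusion. It was followed by a region of 10066 bp at a coding start of IGF2, a fetal growth factor (chr11:2160862-2170927). Regions of 8782 bp at LOXL1, a collagen cross-linking enzyme, 8675 bp at PRDM12, a developmental zinc finger factor, and 8068 bp at the protocadherin gene PCDH7 came next. TGIF1 (7877 bp), CDK6 (7745 bp), the hedgehog receptor PTCH1 (7663 bp), the somite oscillator gene HES7 (7391 bp), RARA (7373 bp) and FOXF1 (7290 bp) were also above 7 kb, as was CPA5 (7258 bp). In all, 190 regions were at least 4 kb and 53 at least 5 kb wide. The values around the limit were close, with SQLE at 3000 bp, RUNX1T1 and EIF2B5 at 3001 bp, RUNX1 at 3002 bp and CDC14A at 3004 bp just inside. IL4R, REPS1 and PLCG1 at 2999 bp, CEP76 and PSMG2 at 2998 bp and POLR2A and ZBTB4 at 2997 bp were just outside.

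Wide regions lay mostly at protein-coding starts. The start of at least 1 annotated coding transcript fell inside 651 of the 719 regions (90.5%), against 78.3% of peaks of 1 to under 3 kb and 13.7% of peaks under 1 kb. The outermost 5′ end of the gene itself was inside in 530 regions, which marked 686 genes, of which 671 had a TPM. Counting any coding transcript start gave 821 genes, 806 of them with a TPM. Regions with 2 or more genes numbered 166, and of the 142 with several gene 5′ ends, 126 held genes on both strands, as at divergent promoters. Histone genes in clusters shared regions of this kind, with HIST2H2AC and HIST2H2BE under 1 region of 5213 bp. There were 15 genes that each had 2 separate wide regions, among them IGF2, RARA, MEIS1, ZIC1, PIPOX and PDZRN3.

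In the 388 wide regions with a single gene start, the mark extended farther into the gene than upstream of it, as it did at shorter peaks. The median extent was 1002 bp upstream and 2503 bp downstream, and 327 of the 388 (84.3%) lay mostly downstream. That share was 85.6% at peaks of 2 to under 3 kb, 85.2% at 1 to under 3 kb and 72.4% at 5 kb or more. The summit lay a median of 474 bp downstream of the start (quartiles 119 and 1111 bp), against 225 bp at peaks of 2 to under 3 kb. CDK6 was of the common kind, with 1082 bp upstream and 6663 bp downstream. PAX3 was of the other kind, with 6077 bp upstream and 4054 bp downstream.

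A further 68 wide regions held no coding start. Of these, 26 held the start of a long noncoding RNA, for example a region of 6390 bp at MIRLET7BHG, the host of let-7 microRNAs, 1 of 5553 bp at LINC00689 and 1 of 4436 bp at NEAT1, the scaffold RNA of paraspeckles. The other 42 held neither, and 33 of the 68 lay inside gene bodies and 35 outside genes. The median distance to the nearest gene 5′ end was 26826 bp, and 18 were within 10 kb. A region outside genes lay 34775 bp from MYOD1, the myogenic master regulator (chr11:17701645-17706343, 4699 bp). The region near MYOD1 measured 3688 bp in DMSO replicate 3, 4859 bp in DMSO replicate 4, 2862 bp, 3743 bp and 4370 bp in P3FI-90 replicates 1, 3 and 4. It was therefore 3 kb or wider in 5 of 6 files, and the widths of the 2 treatments overlapped.

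The other 5 H3K4me3 files held a peak at nearly every wide region, often narrower than 3 kb. DMSO replicate 4 and P3FI-90 replicates 1 and 4 had a peak at all 719 regions, DMSO replicate 3 at 710 and P3FI-90 replicate 3 at 702. The peak was again 3 kb or wider at 394 regions in DMSO replicate 4, 482 in P3FI-90 replicate 1 and 376 in P3FI-90 replicate 4, but at only 83 in DMSO replicate 3 and 79 in P3FI-90 replicate 3. The median width of the widest overlapping peak was 3069 bp in DMSO replicate 4, 3194 bp in P3FI-90 replicate 1 and 3030 bp in P3FI-90 replicate 4, against 1644 and 1576 bp in the DMSO and P3FI-90 files of replicate 3. In the replicate 3 files the regions were split into a mean of 2.01 and 1.94 peaks, and those peaks covered 63.9% and 61.8% of their bases. The replicate 3 files also listed the fewest peaks, 16410 and 16662 against 24160 to 29812 in the others, and the lowest median fold enrichment over background at the wide regions, 13.4 and 12.5 against 22.9 to 67.5. The number of reads behind each file was not analysed here, and its part in the widths was not tested.

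**Figure D1:**
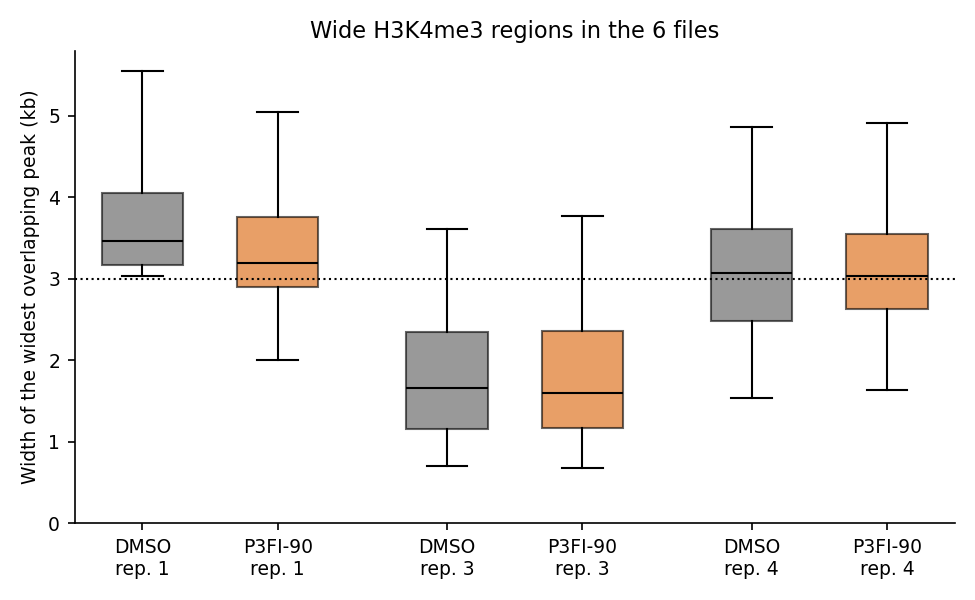
Width in kb of the widest H3K4me3 peak overlapping each of the 719 wide regions, by file, with DMSO in grey and P3FI-90 in orange. Boxes give the quartiles, lines the medians, whiskers the 5th to 95th percentiles, and the dotted line the 3 kb limit that chose the regions in DMSO replicate 1. The boxes of both replicate 3 files lie below the limit, while replicates 1 and 4 straddle or exceed it.

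Of the 719 regions, 593 were 3 kb or wider in at least 2 files, 426 in at least 3, 283 in at least 4, 72 in at least 5 and 40 in all 6. The 40 included PAX3, IGF2, PCDH7, TGIF1, CDK6 and HES7, and further genes of mesodermal and neural progenitors such as TBX15, EYA4, MSC, MEIS1 and NES, the gene of the intermediate filament nestin. IGF2BP1 and HMGA2, RNA- and DNA-binding proteins of fetal tissues, were also among them. So were genes of other kinds, such as UBE2D3, MAN1A2 and ELOVL6 and the long noncoding RNAs NEAT1 and FTX. The 40 were not counted by role. The PAX3 region measured 3330 and 5740 bp in DMSO replicates 3 and 4 and 5962, 3158 and 5807 bp in P3FI-90 replicates 1, 3 and 4. NES measured 3477 and 4668 bp in DMSO and 4681, 3455 and 4604 bp in P3FI-90. At both genes the replicates of a treatment differed more than the treatments did. The region at TSC22D2 went the other way, with 8749 and 8143 bp in the DMSO and P3FI-90 files of replicate 3 against 3896 to 3987 bp in the other 4 files. The regions without a peak numbered 9 in DMSO replicate 3 and 17 in P3FI-90 replicate 3, with 8 in both, and they included the starts of EMX1, AQP1, TSPAN33 and WNT11 and an internal region of BCOR.

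Whether P3FI-90 changed the width was tested in replicates 3 and 4, which the selection did not use, with limma on log2 width over all 11939 peaks present in those 4 files. None of the 701 wide regions tested passed an adjusted p of 0.05, and none of the 11939 peaks did (0.0% called). At an unadjusted p under 0.05, 2 wide regions and 4 of all peaks (0.0335%) were found. With the replicate number as a block, which removes the offset of replicate 3, 53 of the 701 wide regions had an unadjusted p under 0.05, 21 wider and 32 narrower, against 2.91% of all peaks, and 0 passed the adjusted threshold. The median width of the wide regions, relative to that of all peaks of the same file on the log2 scale, was 0.953 and 1.028 in DMSO replicates 3 and 4 and 0.893 and 0.970 in P3FI-90 replicates 3 and 4. The value was lower in P3FI-90 in both pairs, and the group means differed by -0.059 (two-sided exact permutation test without pairing, p = 0.667, where 0.333 is the smallest p that 2 against 2 can give, so that this design cannot pass 0.05). Over all 6 files the value of replicate 1 was 1.102 in DMSO and 1.022 in P3FI-90, again lower in P3FI-90, in the file pair that the selection used.

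Within replicate pairs the wide regions were slightly narrower in P3FI-90. The median log2 difference was -0.044 in replicate 3, where 428 of 701 regions were narrower (61.1%), and -0.025 in replicate 4, where 467 of 719 were (65.0%). Peaks of 2 to under 3 kb moved by as much, at -0.044 and -0.035 with 61.5% and 70.0% narrower, and peaks under 1 kb by 0.004 and 0.014. Of 701 regions with a peak in all files, 308 (43.9%) were narrower in both pairs and 127 (18.1%) wider, against 36.7% and 20.4% of 11909 peaks of all widths. In replicate 1, where the selection by DMSO width favors a narrower P3FI-90 peak, 563 of 719 were narrower (78.3%) with a median of -0.058. Selecting on the P3FI-90 file of replicate 1 instead gave 558 regions, of which 483 (86.6%) were also 3 kb or wider in DMSO, whereas 482 of the 719 (67.0%) were 3 kb or wider in P3FI-90. In replicates 3 and 4 the 2 directions gave closer shares, 69.0% against 73.3% and 75.6% against 79.5%.

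**Figure D2:**
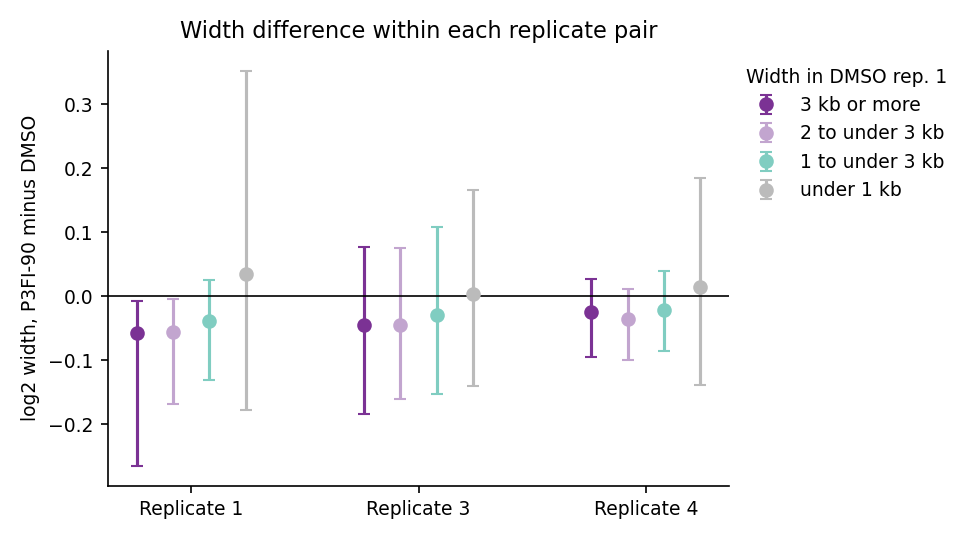
Difference in log2 width between P3FI-90 and DMSO within replicates 1, 3 and 4, for wide regions and for peaks of 2 to under 3 kb, 1 to under 3 kb and under 1 kb. Points are medians over regions and bars run from the lower to the upper quartile. Medians of the wide regions lie at -0.058, -0.044 and -0.025, next to those of the 2 to under 3 kb peaks, and the bars of replicates 3 and 4 cross 0.

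Differences in width between files were largest where a replicate 3 file was set against another replicate. Over the 701 regions the median absolute log2 difference in width was 0.148 between DMSO and P3FI-90 of replicate 3, 0.072 in replicate 4 and 0.074 in replicate 1. It was 0.146 between DMSO replicates 1 and 4, close to the value between treatments in replicate 3, and 0.838 between DMSO replicates 3 and 4 and 0.930 between P3FI-90 replicates 3 and 4.

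Transcript levels of genes at wide regions in the DMSO cells were above those of genes at peaks under 1 kb, and near those at peaks of 2 to under 3 kb. Their median was 35.8, 42.2 and 31.1 TPM in replicates 1, 3 and 4 (n = 671 genes), against 31.8, 34.6 and 26.5 TPM for genes at peaks of 2 to under 3 kb, 23.0, 26.4 and 19.4 TPM for genes at peaks of 1 to under 3 kb, which include the former, and 4.65, 5.91 and 3.75 TPM for those at peaks under 1 kb. The order held in each of the 3 libraries, and no test was made across genes, which are not replicates. Beyond 3 kb the level did not follow the width, with 35.8, 40.8 and 31.4 TPM at 3 to 4 kb and 35.1, 47.1 and 29.5 TPM at 5 kb or more (39 genes). Over the 671 genes, Spearman's rho between width and mean DMSO TPM was 0.01, a value across genes, which share libraries and in part regions. The 671 genes were 3.52% of the coding genes with a TPM and carried 11.4%, 11.5% and 12% of the coding transcripts. In bulk RNA fewer cells that express a gene and less RNA per cell cannot be told apart.

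**Figure D3:**
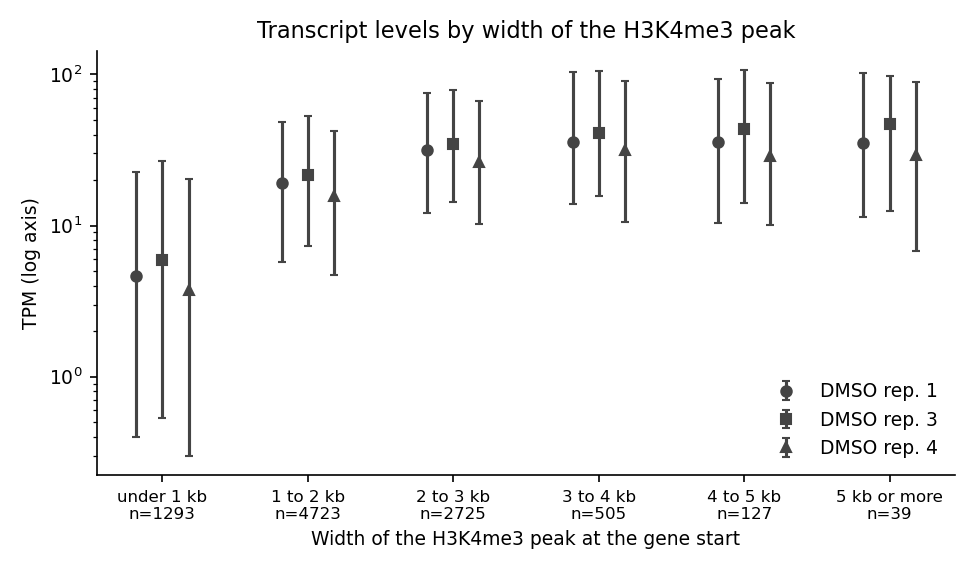
TPM of genes on a log axis by the width of the H3K4me3 peak over their 5′ end, with 1 marker shape for each of the 3 DMSO libraries at 24 h. Markers are medians over genes, bars run from the lower to the upper quartile, and n is the number of genes. The medians rise up to 2 to 3 kb and stay near 30 to 47 TPM beyond 3 kb.

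The levels within the group spanned the whole range. At 1 TPM or more in every DMSO library were 627 genes, and 25.6%, 26.1% and 23.1% were at 100 TPM or more. The highest were ribosomal protein and glycolytic genes, led by RPL41 at 10500, 10600 and 14200 TPM and RPL12 at 5350, 4650 and 6200 TPM, whose reads may in part be shared with processed pseudogenes, and the lectin gene LGALS1 at 2930, 2780 and 3850 TPM. At the other end, 24 genes were under 1 TPM in every DMSO library and 6 were listed at 0, among them the forebrain factor EMX1 (3019 bp), SPESP1 (5581 bp) and the histone genes HIST1H3J and HIST1H2AD. The SPESP1 region also held a start of ANP32A. At EMX1 the widest peak was 532 bp in DMSO replicate 4 and 589 bp in P3FI-90 replicate 4. The paper used poly-A selected RNA, so the histone values cover polyadenylated transcripts only. HES7, at the ninth widest region, was at 0.65, 1.39 and 0.85 TPM. A wide peak therefore did not always go with an abundant transcript of the gene at that start.

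Gene lists by role were set beside 806 of 19046 coding genes (4.23%) with a coding start in a wide region. The 19046 include 9634 genes with no H3K4me3 peak at their 5′ end. A share above 4.23% alone therefore does not set a list apart from other genes with H3K4me3. The lists were not compared with genes that have an H3K4me3 peak. Housekeeping genes stood at 33.3%, as did myogenic factors, and PAX3-FOXO1 target genes at 20.6%. Of 21 myogenic factors 7 had one, among them PAX3, PITX3, MYOG, EYA4 and MYOD1. MYOD1 (3412 bp), which commits cells to the muscle lineage, was at 192, 290 and 289 TPM in DMSO, and MYOG (4652 bp), which drives terminal differentiation, at 296, 353 and 390 TPM. PAX3 was at 23.5, 20.3 and 17.4 TPM, a gene-level value to which transcripts of the fusion can contribute. Of 34 PAX3-FOXO1 target genes 7 had a wide region, namely TFAP2B, MYOG, PIPOX, FGFR4, MYOD1, RASSF4 and MYCN. FGFR4 (4032 bp), a receptor for fibroblast growth factors, was at 245, 254 and 329 TPM, and MYCN (3035 bp), a MYC family factor, at 36.0, 36.5 and 29.8 TPM. Of the 32 contractile genes 5 had a wide region, with CHRNA1, the acetylcholine receptor subunit of muscle, at 962, 1040 and 711 TPM and cardiac actin ACTC1 at 735, 901 and 1180 TPM.

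Developmental and signaling genes were also represented. Of 36 growth factor signaling genes 13 had a wide region, among them IGF2, its adaptor IRS1 (6687 bp), the receptors FGFR4 and FGFR1, and the feedback inhibitors DUSP6, SPRY1, SPRY2, SPRY4, SPRED1 and SPRED2. IGF2 was at 645, 1220 and 696 TPM and IRS1 at 48.9, 65.4 and 45.6 TPM. The list of other developmental factors had 16 of 62, from FOXF1 (7290 bp) and NR2F2 (6355 bp) down to ZIC2 (3013 bp), with levels of 2.26 to 94.7 TPM over the DMSO libraries. The ID and Notch list had 6 of 21, with ID3, an inhibitor of myogenic factors, at 204, 267 and 302 TPM and the Notch effector HEYL at 117, 86.3 and 80.7 TPM. Neural and other lineage factors had 5 of 44, among them TBX15 and GATA2, and the 39 HOX genes and the 15 markers of other cell types with a TPM had 0.

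Genes of fast responses and of basic functions made up other groups. Of 27 immediate early genes 9 had a wide region, with JUN at 165, 234 and 222 TPM, MCL1 at 255, 240 and 148 TPM and FOSB at 0.42, 0.46 and 0.41 TPM, so that the group held both abundant and nearly silent members. Heat shock and stress genes had 6 of 22 (HSPA8, TXNIP, HSPE1, HSPD1, ATF4 and GADD45A) and cell cycle and p53 genes 7 of 24, led by CDK6, a kinase of G1 progression, at 423, 372 and 195 TPM. Replication-dependent histone genes had 12 of 50 and cytosolic ribosomal protein genes 11 of 76, the latter at 650 to 14200 TPM. Of the enzymes that write and erase H3K4 methylation 3 of 18 had a wide region, KMT2E, KMT2D and SETD1B, and of those for H3K9 and its readers also 3 of 18, CBX3, CBX5 and KDM4C. Apoptosis genes had 2 of 26. Among 12 housekeeping genes 4 had a wide region, with GAPDH (3839 bp) at 3090, 2560 and 3020 TPM.

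Transcripts from wide regions were compared after P3FI-90 at 24 h with limma on log2(TPM + 1) over the 12332 genes whose mean reached 1 TPM. None of the 643 genes at wide regions that were tested passed an adjusted p of 0.05, and 1 of all genes did (0.00811% called). At an unadjusted p under 0.05 were 10 higher and 17 lower genes at wide regions (4.20%), against 1.98% of all genes, and with the replicate block 20 higher and 65 lower, against 8.09%. In the blocked fit 0 genes at wide regions and 3 of all genes, each higher, passed the adjusted threshold (0.0243% called), and with each library scaled by its median ratio 16 higher and 20 lower genes at wide regions had an unadjusted p under 0.05 (5.60%, against 3.93%). The median log2 difference of genes at wide regions within pairs was -0.15, -0.14 and -0.13 in replicates 1, 3 and 4, against -0.09, -0.06 and -0.06 over all coding genes, a lower median in each pair. The limma fits shared 1 estimate of the spread with P3FI-63, so the SE and p of P3FI-90 include the difference between the P3FI-63 libraries. Those had a median of 36.6 and 17.4 TPM at wide regions in replicates 3 and 4. When either was left out, larger shares of genes at wide regions and of all genes had an unadjusted p under 0.05, and none passed the adjusted threshold.

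The genes at wide regions with the smallest unadjusted p after P3FI-90 included CEBPB, a stress-responsive bZIP factor, at 7.18, 9.52 and 7.57 TPM in DMSO and 16.6, 33.6 and 31.2 TPM in P3FI-90 (log2 change 1.58, SE 0.33, adjusted p = 1). ATF4, the effector of the integrated stress response, was at 219, 423 and 229 TPM in DMSO and 394, 693 and 649 TPM in P3FI-90 (log2 change 1.02, SE 0.29). The histone variant gene H2AFX was at 144, 161 and 210 TPM in DMSO and 71.4, 86.7 and 88.5 TPM in P3FI-90 (log2 change -1.04, SE 0.23). FOXF1 was at 15.4, 17.4 and 15.8 TPM in DMSO and 5.47, 8.18 and 6.85 TPM in P3FI-90 (log2 change -1.15, SE 0.35). For ATF4, DMSO replicate 3 exceeded P3FI-90 replicate 1. The 4 genes were picked by their p in these libraries, so how far the groups lie apart adds no support. All 4 had an adjusted p of 1 in limma.

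PAX3 itself was at 23.5, 20.3 and 17.4 TPM in DMSO and 12.2, 14.3 and 12.3 TPM in P3FI-90 (log2 change -0.61, SE 0.33, limma adjusted p = 1). MYCN was at 36.0, 36.5 and 29.8 TPM in DMSO and 20.9, 25.2 and 18.5 TPM in P3FI-90 (log2 change -0.65, SE 0.28, limma adjusted p = 1). MYOD1, at 111, 280 and 268 TPM in P3FI-90, overlapped the DMSO libraries, with replicate 1 the lowest in both groups. At none of these genes was the change past the threshold set over all genes.

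P3FI-63 at 10 µM gave larger differences from the same 3 DMSO libraries. Of the 643 genes at wide regions 36 passed an adjusted p of 0.05 (5.60%), 9 higher and 27 lower, whereas 292 of all 12332 genes did (2.37% called), 143 higher (1.16%) and 149 lower (1.21%). At an unadjusted p under 0.05 were 26.9% of genes at wide regions against 19.7% of all. With the replicate block 115 genes at wide regions passed, 16 higher and 99 lower, against 11% of all genes, 2.70% higher and 8.31% lower, and the 36 were all among them. The median log2 change of all genes was -0.35, and that of genes at wide regions -0.46. Scaling each library by its median ratio moved the median of all genes to 0.01 and that of genes at wide regions to -0.07, and gave 20 higher and 24 lower genes at wide regions, against 4.32% of all genes, 2.70% higher and 1.62% lower, with 25 of the 36 called again. With this scaling 21.4% of all genes and 22.6% of genes at wide regions had an unadjusted p under 0.05. Replicate 4 of P3FI-63 stood apart, with a median of 17.4 TPM at wide regions against 36.6 TPM in replicate 3, and without it 26 genes passed, 6 higher and 20 lower, while with it as the lone P3FI-63 library, replicate 3 being left out, 319 passed. Leaving out DMSO replicate 1, 3 or 4 left 6, 7 and 8 genes, and each of the 36 kept its direction in every alternative. The summed level of the markers of other cell types was 35.5 and 81.2 TPM in P3FI-63 replicates 3 and 4 against 16.9 to 24.9 TPM in DMSO, mostly TUBB3 at 28.3 and 71.0 TPM, and its part in these counts was not tested.

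The 9 genes at wide regions that rose after P3FI-63 included ATF4 and GADD45A of the heat shock and stress list. VEGFA, the endothelial growth factor, was at 5.79, 8.55 and 4.02 TPM in DMSO and 77.3 and 47.8 TPM in P3FI-63 replicates 3 and 4 (log2 change 3.17, SE 0.43, limma adjusted p = 0.0085). CEBPB was at 36.0 and 43.1 TPM in P3FI-63 (log2 change 2.16, adjusted p = 0.020) and ATF4 at 899 and 943 TPM (log2 change 1.73, adjusted p = 0.031). Both P3FI-63 libraries exceeded all 3 DMSO libraries for these 3 genes. They were picked because they passed in these same libraries, so this adds no support. FOSB, an immediate early factor, was at 9.76 and 140 TPM (log2 change 4.77, SE 0.84, limma adjusted p = 0.023), 2 values far apart. The growth arrest gene GADD45A was at 155, 235 and 133 TPM in DMSO and 682 and 584 TPM in P3FI-63, and the amino acid transporter subunit SLC3A2 at 94.5, 120 and 106 TPM and 346 and 546 TPM. CITED2, MRPL18 and HSPE1-MOB4 completed the 9, with log2 changes of 2.10, 2.09 and 3.56, and the last is a readthrough of HSPE1 and MOB4 whose reads cannot be separated from those of its parts. Of the heat shock and stress list, 3 of 6 genes at wide regions rose (HSPD1, ATF4 and GADD45A) and 0 fell. Of all genes with a coding start in a wide region 13 of 776 rose, and of all 12332 genes 143 (1.16%). The list was not tested as a set. HSPD1, marked only at an inner start, is not among the 9, and with median-ratio scaling it had an adjusted p of 0.0555 in limma, while ATF4 and GADD45A passed with 0.0246 and 0.0122.

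The genes that fell included lineage and PAX3-FOXO1 target genes. MYOG was at 296, 353 and 390 TPM in DMSO and 52.0 and 129 TPM in P3FI-63 (log2 change -2.06, SE 0.34, limma adjusted p = 0.018). NES was at 519, 736 and 571 TPM in DMSO and 164 and 79.8 TPM in P3FI-63 (log2 change -2.39, SE 0.30, adjusted p = 0.0062). HEYL was at 20.3 and 11.1 TPM in P3FI-63 (log2 change -2.56, SE 0.40, adjusted p = 0.015). Both P3FI-63 libraries lay below every DMSO library for each of these genes. They were picked because they passed in these same libraries, so this adds no support. MYCN was at 7.15 and 10.9 TPM (log2 change -1.83, adjusted p = 0.020), TFAP2B at 1.35 and 1.32 TPM against 6.66, 10.9 and 6.53 TPM in DMSO, and RASSF4, marked only at an inner start, at 25.4 and 37.0 TPM against 112, 107 and 122 TPM. Of the PAX3-FOXO1 target list 4 of 7 genes at wide regions fell (TFAP2B, MYOG, RASSF4 and MYCN) and 0 rose. FGFR4, MYOD1 and PIPOX did not pass, with limma adjusted p of 0.176, 0.177 and 0.067. Of all genes with a coding start in a wide region 32 of 776 fell, and of all 12332 genes 149 (1.21%). List members outside wide regions were not counted, and the list was not tested as a set. With median-ratio scaling TFAP2B still passed in limma (adjusted p = 0.0188), and MYOG, RASSF4 and MYCN did not, with adjusted p of 0.129, 0.0747 and 0.0595.

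OLFML2B, an extracellular matrix gene, had the smallest adjusted p among the genes that fell, at 81.4, 86.2 and 68.8 TPM in DMSO and 11.4 and 8.06 TPM in P3FI-63 (log2 change -2.90, SE 0.26, limma adjusted p = 0.0015). The semaphorin gene SEMA6A, the sialyltransferase gene ST6GAL2, the tetraspanin gene TSPAN33, the arrestin gene ARRB1, BRINP1 and the adhesion gene NECTIN1 fell by 1.97 to 2.52 on the log2 scale. In the P3FI-90 libraries NES was at 345, 355 and 289 TPM, and NECTIN1 at 129, 113 and 117 TPM against 175, 200 and 182 TPM in DMSO. The compounds were given at different doses and share the DMSO libraries, so these values are set side by side and were not compared.

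**Figure D4:**
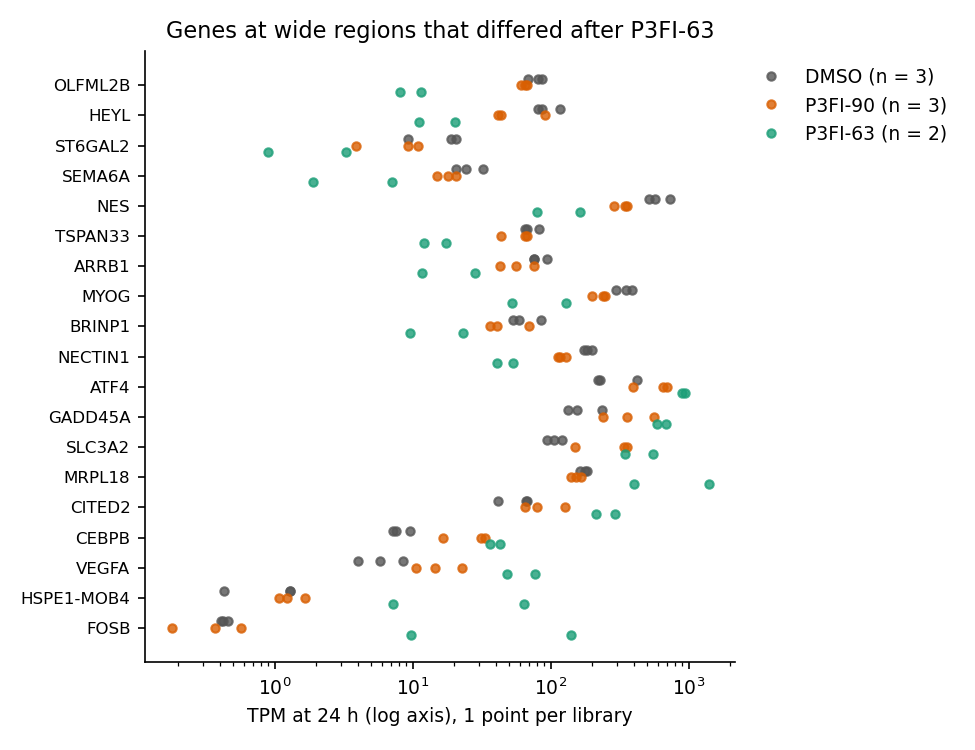
TPM on a log axis of 19 genes at wide regions that passed an adjusted p of 0.05 after P3FI-63, the 10 that fell most and the 9 that rose, with 1 point per library at 24 h. DMSO is grey, P3FI-90 orange and P3FI-63 green. The green points lie to the left of all grey points for OLFML2B to NECTIN1 and to their right for ATF4 to FOSB, and the orange points mostly lie on the grey points or between the groups. The genes were chosen on these same libraries, so the separation of green from grey points adds no support.

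Single libraries at 6 h and the 2 tumors per group were read as further conditions. At 6 h of P3FI-90 the median log2 difference from DMSO was 0.17 for genes at wide regions and 0.15 for all coding genes. In the screen, P3FI-63 gave -0.05 for both. These are differences between 2 libraries each, with no replicate check. The screen libraries are labelled 24 h, whereas the paper describes that P3FI-63 treatment as 6 h, so its time is not settled here. In the tumors none of 632 genes at wide regions passed an adjusted p of 0.05 in limma, against 2 of 12357 genes (0.0162% called), with 3 higher and 79 lower at an unadjusted p under 0.05 (13.0%, against 6.87% of all genes). The median at wide regions was 41.6 and 34.5 TPM in DMSO tumors and 33.1 and 23.9 TPM in P3FI-90 tumors, and that of genes at peaks of 1 to under 3 kb was also lower, at 24.7 and 20.6 TPM and at 20.6 and 14.6 TPM. Tumor P3FI-90 replicate 2 was the lowest, and without tumor P3FI-90 replicate 1, which leaves it as the lone treated tumor, 159 genes at wide regions passed. The P3FI-90 effect in tumors differed from that in cells at 0 of 640 genes at wide regions and at 1 of 12419 genes in an interaction test in limma.

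The other peak files showed what wide regions held besides H3K4me3. Each mark had 1 library per group, except H3K9me2 with replicates 1, 3 and 5, and shares are a description with no test. Over their whole length, 64.3% of the 719 regions overlapped an ATAC peak of accessible chromatin in the DMSO cells at 4 h, 32.5% a peak of RNA polymerase II (Pol II), 87.5% a peak of Pol II phosphorylated at serine 5, the form found near start sites, and 31.0% a peak of the serine 2 form found in elongation. An H3K27me3 peak, the mark of Polycomb repression, overlapped 243 regions (33.8%, against 22.3% of peaks of 2 to under 3 kb, which are shorter), and an HP1 peak overlapped 12.2%. The H3K27me3 file listed 255118 peaks of median width 459 bp, and how many regions would meet one by position alone was not tested. An H3K27me3 peak was listed at 136 regions in both DMSO and P3FI-90, at 107 in DMSO only and at 152 in P3FI-90 only. To hold length constant, a window of 1 kb around the H3K4me3 summit was also counted. In that window wide regions had a Pol II peak in 22.7% against 13.2% of peaks of 2 to under 3 kb, a serine 2 peak in 17.1% against 9.68%, and a serine 5 peak in 76.2% against 74.5%. ATAC peaks went the other way, in 38.5% against 51.9%. Over the whole length the ATAC shares were close, at 64.3% and 65.2%. In the 1 kb window the marks of repressed chromatin were listed for H3K27me3 in 14.5% against 13.9%, H3K9me2 of replicate 1 in 8.07% against 7.00% and HP1 in 3.62% against 2.75%. H3K9me2 of DMSO replicates 3 and 5 gave 6.68% against 6.11% and 0% against 0.0679%. Those files listed 26073 and 9382 peaks, against 236211 in replicate 1.

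**Figure D5:**
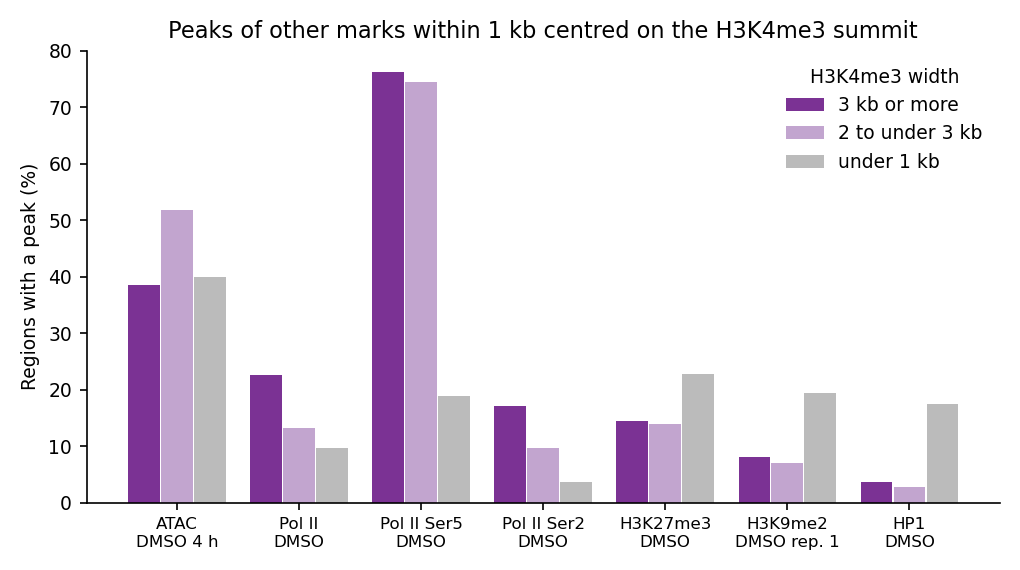
Percent of regions with a peak of another mark in the 1 kb window centred on the H3K4me3 summit, for wide regions, peaks of 2 to under 3 kb and peaks under 1 kb, in DMSO cells with 1 library per mark. Bars start at 0. Wide regions have the tallest bars for Pol II, serine 5 and serine 2 forms, and a lower bar than 2 to under 3 kb peaks for ATAC.

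Genes whose wide region held a Pol II peak (204 genes) had a median of 77.8, 78.3 and 65.5 TPM in the 3 DMSO libraries, and the 467 without one 30.4, 35.4 and 25.6 TPM. With an H3K27me3 peak in the region (219 genes) the medians were 33.8, 40.0 and 27.7 TPM, and without one (452 genes) 38.1, 42.5 and 34.1 TPM. At the CDK6 region 5 Pol II, 6 serine 5 and 7 serine 2 peaks were listed in DMSO, while the PAX3 region listed 5 serine 5 peaks and no Pol II or ATAC peak. Of the 68 regions without a coding start, 53 held a serine 5 peak, 39 an ATAC peak, 35 an H3K27me3 peak and 32 a Pol II peak. The region upstream of MYOD1 listed 2 Pol II, 4 serine 5, 3 serine 2, 2 H3K27me3 and 1 ATAC peak.

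In the P3FI-90 files fewer wide regions overlapped Pol II, 3.34%, and serine 5, 65.2%, but those files listed fewer peaks in all, 521 against 6031 and 7484 against 13691. HP1 peaks were found at 28.4% of wide regions against 12.2% in DMSO, from 41771 against 23615 peaks. ATAC peaks were found at 86.2% after 4 h of P3FI-63, from 55987 against 30221 peaks. With 1 library per group, a difference at wide regions and a difference in how many peaks a file lists cannot be told apart.

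The base composition of wide regions was close to that of other long peaks. The median G+C content was 57.0% and the ratio of observed to expected CG 0.682, against 56.7% and 0.696 at 2 to under 3 kb and 52.2% and 0.371 under 1 kb. The ratio reached 0.6, a usual limit for CpG islands, in 67.3% of wide regions and 76.7% of the peaks of 2 to under 3 kb. Wide regions without a coding start had a median ratio of 0.388 and reached 0.6 in 27.9%. MYOG (0.248) and FGFR4 (0.431) were CG-poor wide regions with a coding start, and MYOD1 (0.736) and PRDM12 (0.715) CG-rich ones.

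Short motifs were counted on both strands of the 300 bases around each summit, and a match describes the letters only. None of the 7 motifs contains another. The GC box GGGCGG was found in 39.8% of wide regions, 46.2% of peaks of 1 to under 3 kb and 33.9% of all other peaks. The E box CAGCTG, a site form of myogenic factors, was found in 15.6% against 20.4% of all other peaks, CCAAT in 21.8% against 24.6%, and TATAAA in 3.76% against 7.23%. CACGTG was found in 4.31% against 5.20%, TGACTCA in 1.95% against 4.58% and CATTCCA in 2.50% against 4.28%. Of the 29093 other peaks, 17991 were under 1 kb. Peaks of 1 to under 3 kb were closer to the wide regions, with CAGCTG in 16.3%, CCAAT in 20.4% and TATAAA in 3.38%. They held CACGTG in 5.03%, TGACTCA in 2.57% and CATTCCA in 2.81%. Of the printed windows, that of PAX3 holds CAGCTG, those of PRDM12 and HES7 hold GGGCGG, and the window upstream of MYOD1 holds none of the 7.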

How the data were processed

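The members and gene lists were chosen with earlier results of these data known. Peaks were called by the authors per sample with MACS2 after alignment to hg19 with BWA, and blacklisted regions were removed. The deposited peak files give each peak's fold enrichment, a ratio to local background that is not scaled to the spike-in, and its −log10 p, which were used as deposited, with H3K27me3 and H3K9me2 peaks kept at a −log10 p of at least 3. TPM were estimated by the authors with STAR and RSEM and keep no depth, so counting error is not known.

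Width was the end minus the start of a peak, and a match needed an overlap of 1 bp. Genes were those of the GENCODE annotation lifted to GRCh37. log2 width, and log2(TPM + 1) for genes whose mean reached 1 TPM, were tested with limma 3.58.1 (R 4.3.3) with Benjamini-Hochberg adjustment over all features, and other values with SciPy 1.17.1. The cell fit held DMSO, P3FI-90 and P3FI-63 together. Fold changes on log2(TPM + 1) understate those of low genes. Scripts were tested on simulated data. Genes are named where they are the widest 15, the 10 largest changes each way, list members or study genes, and others were picked after their values were seen. Same-numbered samples deviated together from their group means (width r 0.739, 0.857 and 0.672, RNA r 0.571, 0.575 and 0.643 for numbers 1, 3 and 4), so blocked values are given where they change a result. The results for 1 gene and 1 region are not reported here.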

Additional observations from a re-analysis of the deposited data

How the results depend on the processing

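The main limits are that 2 of the 6 H3K4me3 files list far narrower peaks and that width depends on where a peak caller splits a region. The other marks, except H3K9me2, also have only 1 library per group. The count of P3FI-63 genes at wide regions, 36, was 115 with the replicate block and 16 with no filter on low values, where more genes are tested, and ran from 6 to 319 when 1 library was left out. In tumors the count of 0 ran from 0 to 159 when 1 tumor was left out. The cause of these moves was not tested. The block changed no other count at wide regions. Over all genes it moved the P3FI-90 count from 1 to 3. Over all peaks it moved that of fold enrichment from 0 to 5, each higher in P3FI-90. The median log2 difference in fold enrichment was 0.254 over all peaks and 0.253 over wide regions. With the block, 16 wide regions were higher and 3 lower at an unadjusted p under 0.05 in limma (2.71%, against 3.83% of all peaks). The paper, with counts normalized to the spike-in, lists only upregulated H3K4me3 peaks after P3FI-90. No paired analysis was possible in tumors because their numbers follow the order of deposit. The median width difference of -0.059 ran from -0.030 at a 2 kb limit to -0.213 within replicate 1, and was -0.015 where a peak had to cover at least 50% of a region. No wide region passed the width test under any alternative, among them covered base pairs, no filter, all 6 files and, chosen after seeing the data, fold enrichment in place of width. Genes at any coding transcript start, also added after seeing the data, gave 45 after P3FI-63. The matched regions, the genes marked and their median TPM moved by less than 1.5-fold or 1 SD. Of the alternative results of the 19 genes plotted for P3FI-63, 84 fell short of the threshold under an alternative and 144 did not, and none changed sign.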
